A study of Mus musculus with 16 samples.

Results

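E0771 is a mouse breast cancer cell line, and the 8 tumours it formed were ranked by their signal of Ptprc, the gene of CD45, and the 4 highest were set against the 4 lowest whatever their hypoxia status. They are 8 of the 16 tumours of the series; the other 8 came from the colorectal cancer line MC38, also of the mouse. In both lines 500000 cells had been implanted with matrigel at the right shoulder, every mouse had been treated with immunotherapy against both PD-1 and CTLA-4, and each tumour was taken after the imaging of day 5 after treatment, so that no untreated tumour is part of the comparison. The labels give each tumour its own mouse number within a line and class it as hypoxic or normoxic (3 hypoxic and 5 normoxic E0771 tumours). The sources used here give neither strain, age nor sex of the mice. RNA was measured with the NanoString mouse PanCancer Immune panel, which counts transcripts of 770 genes with colour-coded probes, and values are normalized signals scaled on housekeeping genes. The groups were selected on Ptprc measured in these same tumours, so every rich minus poor difference is a description, with no p-value, and the count of genes that separate the groups supports nothing by itself.

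CD45 is a membrane phosphatase carried by nearly all nucleated blood-derived cells and absent from carcinoma cells, fibroblasts and endothelium. In T and B cells it acts on kinases that carry the signal of the antigen receptor. Its transcript is therefore often used as a measure of how much of a piece of tissue is leukocytes. In whole tumours a lower signal can come from fewer such cells or from less RNA in each, and these cannot be told apart here.

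The signal of Ptprc was 1322 in normoxic 71, 1226 in normoxic 38, 884 in normoxic 65 and 577 in hypoxic 22, which form the rich group. It was 445 in hypoxic 55, 268 in normoxic 17, 263 in normoxic 4 and 77.5 in hypoxic 12, the poor group. The members nearest the boundary, hypoxic 22 at 577 and hypoxic 55 at 445, differed less than hypoxic 22 and the next rich tumour. On the log2(value + 1) scale used throughout, the group means were 9.90 ± 0.54 and 7.80 ± 1.06 (SD, n = 4 each), a difference of 2.10. 1 hypoxic and 3 normoxic tumours were rich, 2 hypoxic and 2 normoxic were poor. Below, values are listed in this order, from normoxic 71 to hypoxic 22 for the rich and from hypoxic 55 to hypoxic 12 for the poor tumours.

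**Figure D1:**
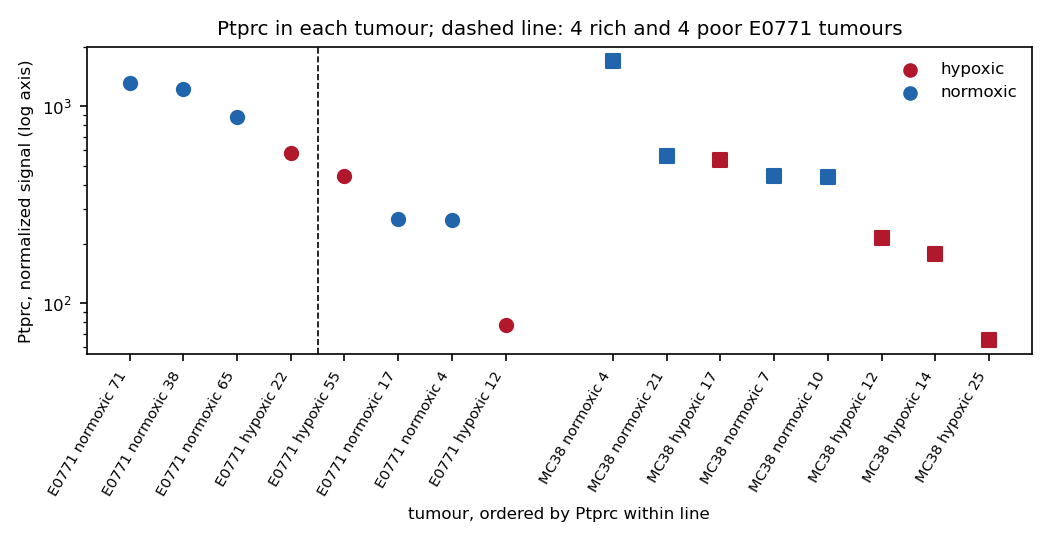
Ptprc in each of the 16 tumours as normalized signal on a log axis, ordered from highest to lowest within each line (circles, E0771; squares, MC38), with red for hypoxic and blue for normoxic. The dashed line lies between hypoxic 22 (577) and hypoxic 55 (445) and divides rich from poor E0771 tumours; both hypoxia classes stand on each side of it.

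The labelled hypoxia classes were not used to form the groups, so their Ptprc can be tested. Hypoxic E0771 tumours averaged 8.09 ± 1.57 and normoxic ones 9.31 ± 1.16 (SD, n = 3 and 5), a difference of -1.22 (exact two-sided permutation test, p = 0.286; the smallest p this design allows is 0.0179). The ranges overlapped, with hypoxic 22 and hypoxic 55 above normoxic 17 and normoxic 4. Without hypoxic 12 the difference was -0.32 (exact permutation p = 0.762).

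Depth did not separate the groups: estimated gene counts before scaling were 180274 to 805932 in rich and 192035 to 719240 in poor tumours. 3 tumours stood apart, with the fewest counts and the highest scaled negative probes (mean 24.6 in hypoxic 22, 15.6 in normoxic 65 and 17.4 in hypoxic 12, against 3.71 to 6.58 in the others). What did separate the groups was the level of the panel as a whole. The median gene was at 183 to 225 in rich and at 77.5 to 110.2 in poor tumours, although the housekeeping genes were scaled to the same geometric mean of 780 in all. The group means of the log2 tumour medians differed by 1.06. Differences are given on the deposited scale, and subtracting 1.06 gives them relative to each tumour's median gene.

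Of 769 gene rows besides Ptprc, 607 had a mean over the 8 tumours of at least 31.0, the mean plus 2 SD of the scaled negative probes, and 162 did not. That mean spans both groups, so a gene can reach it through the rich tumours alone, with poor values in the range of the negative probes. Of the 607, 82.7% had a positive difference, with a median of 0.89. In 205 of them (33.8%) all 4 rich tumours lay above all 4 poor tumours, and in 6 (0.988%) all 4 lay below. Nothing is read from these shares, since Ptprc had ordered the tumours. Over all 769 rows the counts were 219 and 6. Relative to the median gene they were 50 and 103 over all rows. When the estimated counts were scaled on the positive-control probes instead of the housekeeping genes they were 1 and 0, so on that scale the groups overlapped for nearly every gene. The 1 gene, named after its value was seen, was Glycam1, a mucin of lymph node vessels, with a difference of 0.94 there and a deposited signal under 31.0 in all 8 tumours. Those probes are added in fixed amount to each reaction, and the sources used here do not give the RNA input per tumour.

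Tumours within a group were not alike. Hypoxic 12 had the lowest of the 8 values in 239 of the 607 genes and normoxic 4 in 143. Among rich tumours, hypoxic 22 lay nearest to the poor group in 109 of the 205 genes. Among poor tumours, hypoxic 55 lay nearest to the rich group in 83 of them and normoxic 4 in 74. Of 27 gene lists described below, hypoxic 12 had the lowest mean level in 22, normoxic 65 the highest in 11 and normoxic 38 the highest in 9. Lists share some genes, and only members that reached the level of 31.0 are counted unless stated. Each list count is to be set beside the share over all 607 genes, 33.8% higher without overlap and 82.7% positive.

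The labels were checked against markers. Of 5 T cell markers (Cd3d, Cd3e, Cd3g, Cd2, Cd5) 4 reached the level, with summed signals of 746 to 3008 in rich and 182 to 545 in poor tumours. The 4 measured macrophage markers of 5 listed (Emr1, Cd68, Csf1r, Mrc1) summed to 5864 to 13511 and 2988 to 5501, also without overlap. Of 3 fibroblast markers (Col1a1, Col3a1, Pdgfrb) the sums were 12579 to 37116 and 2785 to 12716, and normoxic 4 alone reached into the rich range. Of 3 endothelial markers (Pecam1, Cdh5, Tek) they were 377 to 728 and 128 to 268. The fibroblast sums are nearly all Col1a1 and Col3a1 (differences of 2.46 and 2.05), while Pdgfrb had a difference of -0.0091 and was highest in hypoxic 12. The part of these stromal genes in the other differences was not tested.

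Of 3 epithelial markers 2 were measured, and they were at or near background in most E0771 tumours. Epcam, an adhesion protein of epithelial cells, was at 9.58, 497, 13.3 and 95.0 in the rich and 4.63, 12.7, 28.4 and 4.56 in the poor tumours, under 31.0 in 6 of 8. Cdh1, which encodes E-cadherin, was at 30.9, 743, 29.2 and 187 and 19.3, 19.98, 44.8 and 20.5, under 31.0 in 5 of 8. Both were far highest in normoxic 38 and next in hypoxic 22, and their large mean differences of 2.29 and 2.08 come from those tumours.

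Genes that leukocytes of many kinds share followed Ptprc, which had chosen the groups. Of 20 general leukocyte genes 14 separated the groups and all 20 had positive differences (median 1.44). Cd84, an adhesion receptor of the SLAM family, was at 892, 1351, 1452 and 774 in rich and 362, 292, 256 and 173 in poor tumours. Ikzf1, which encodes the lymphoid transcription factor Ikaros, was at 147, 172, 186 and 190.1 against 51.7, 39.0, 48.6 and 34.2, with the 4 rich tumours close together. Selplg, the selectin ligand PSGL-1, overlapped because hypoxic 22 was low (1741, 1828, 969 and 394 against 471, 379, 539 and 219). Cd47, a signal against phagocytosis that most cells carry, had a small difference of 0.33.

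The gene ranked first by difference on the deposited scale was Gzmk, which encodes granzyme K, a serine protease of effector and memory CD8 T cells. Its signal was 441, 355, 799 and 201 in the rich and 100.2, 27.2, 7.58 and 13.7 in the poor tumours. The log2 means were 8.64 ± 0.82 and 4.61 ± 1.54 (SD, n = 4 each), a difference of 4.03. Hypoxic 55 reached 100.2, but normoxic 17, normoxic 4 and hypoxic 12 were under 31.0, so the poor mean lies in the range of the negative probes and no fold is given. The difference ran from 2.97 to 5.04 over the alternatives. Its neighbour on chromosome 13, Gzma, which encodes granzyme A, was at 321, 422, 656 and 155 and 239.8, 139.9, 124 and 157 and overlapped, since hypoxic 22 lay below hypoxic 55 and hypoxic 12. The difference of Gzma was 1.09.

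Among the 15 largest differences, 7 including Gzmk were genes of T and NK cells. Cxcr6, a chemokine receptor of tissue-resident T cells, was at 902, 1039.8, 998 and 345 in rich and 196, 175, 50.5 and 43.3 in poor tumours, log2 means of 9.56 ± 0.76 and 6.56 ± 1.14 (SD, n = 4 each). Sh2d1a, the adaptor SAP that signals below SLAM receptors, was at 187, 158, 369 and 137 and 48.6, 20.9, 13.9 and 22.8 (2.99). Both separated the groups, Cxcr6 with a wide step between hypoxic 22 and the other rich tumours. Klrc1 and Klrd1 encode NKG2A and CD94, which pair as an inhibitory receptor of NK and CD8 T cells. Klrc1 was at 678, 820.3, 1604 and 838 against 222, 171, 79.5 and 79.8 and Klrd1 at 730.5, 958, 1957 and 676 against 256, 193, 166 and 93.5, both highest in normoxic 65. The CD3 gamma gene Cd3g was at 802, 874, 1266 and 246 against 236, 125, 64.4 and 41.0 (2.85). Here hypoxic 22 and hypoxic 55 were nearly level. Cd6, a co-receptor of T cells, was at 136, 151, 234 and 91.5 against 30.1, 35.4, 17.7 and 15.96 (2.58).

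As a list, 18 of 19 T cell genes were higher in all rich tumours than in any poor tumour, and the list median was 2.16 against 0.89 over all genes. Cd3d (2.52) and Icos (2.49), a co-stimulatory receptor, lay near the top. The smallest differences were those of Cd96 (1.21), Cd28 (1.22) and Tcf7 (1.29), a transcription factor of naive and stem-like T cells. Cd4 was at 158, 187, 146 and 225 against 40.9, 52.7, 68.2 and 45.6, highest in hypoxic 22. Cd8a was at 312, 288, 324 and 158 against 82.5, 66.3, 36.0 and 31.9, lowest of the rich tumours in hypoxic 22. The order of the rich tumours thus differed between the 2 co-receptors.

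Of 14 CD8 and cytotoxic genes 11 separated the groups, with a median of 2.03. Gzmb, which encodes granzyme B, did not: it was at 418, 429.8, 469.9 and 70.4 in rich and 218, 107, 65.0 and 84.4 in poor tumours. Hypoxic 22 lay under 3 of the 4 poor tumours for Gzmb, while it was the highest for Ifng (43.7, 34.8, 47.8 and 59.8 against 20.8, 18.2, 32.8 and 11.4), the interferon gamma gene. Prf1, which encodes perforin, was at 112, 112, 173 and 73.9 against 67.1, 51.8, 29.7 and 57.0, a difference of 1.17. Eomes, a transcription factor of cytotoxic cells, had the smallest difference of the list at 0.95.

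The list of natural killer genes leaves out Klrc1, Klrd1 and Klrc2, which stand in the CD8 and cytotoxic list. Of 9 listed genes that reached the level 4 separated the groups (median 1.17), and 10 of the 19 measured did not reach it. Ncr1, the activating receptor NKp46, was at 65.0, 79.6, 71.7 and 45.8 against 24.7, 26.3, 47.4 and 9.12, with normoxic 4 above hypoxic 22. Klrb1c, the NK1.1 antigen, was highest of all in normoxic 4 (34.1, 52.1, 47.8 and 56.3 against 15.4, 26.3, 72.0 and 13.7). Klra4, an inhibitory Ly49 receptor whose probe may share targets with near-identical family members, had a difference of 0.13. The summed marker pair Ncr1 and Klrb1c overlapped between the groups (99.0 to 132 against 22.8 to 119).

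All 6 B cell genes that reached the level separated the groups (median 1.56), but 10 of 16 measured did not reach it. Over all 16 the median was 0.94, and 6 separated the groups. The level is a mean over both groups, so some of the 6 reached it through the rich tumours alone. Their count and median are partly set by that filter. Cd79b, part of the B cell receptor, was at 67.1, 58.5, 50.4 and 35.2 against 18.5, 15.4, 16.4 and 2.28, and in the poor tumours it stayed under 31.0. Cd22, an inhibitory receptor of B cells, was at 62.8, 77.7, 55.8 and 73.9 against 24.7, 21.8, 25.9 and 11.4, also under 31.0 in every poor tumour. The defining gene Ms4a1, which encodes CD20 (2.28 to 24.6), was under the level in all 8 tumours. Cd83 and Cd180, 2 of the 6, are also carried by dendritic cells and macrophages.

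Regulatory T cell genes had a median of 1.58, and 4 of 8 separated the groups. Foxp3, the transcription factor that defines these cells, was at 53.2, 58.5, 61.1 and 35.2 against 13.9, 15.4, 24.6 and 9.12 and under 31.0 in every poor tumour. Ctla4, a target of the treatment that lies between Cd28 and Icos on chromosome 1, was at 338, 348, 422 and 282 against 107, 71.8, 143 and 50.2 (1.98). Entpd1, which encodes CD39, was at 581, 666, 342 and 215 against 190.5, 159, 179 and 43.3. Nt5e, which encodes CD73, the next enzyme on the way from ATP to adenosine, was at 317, 246, 133 and 327 against 470.4, 352, 282 and 176 and had a difference of -0.32. The 2 enzymes of this path therefore had opposite signs.

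Of 20 immune checkpoint genes 12 separated the groups (median 1.35). Pdcd1, which encodes PD-1, the other treated receptor, was at 508, 362, 412 and 299 against 147, 84.5, 72.0 and 47.9 (8.60 ± 0.32 and 6.36 ± 0.66 on the log2 scale, SD, n = 4 each). Havcr2, which encodes TIM-3, was at 538, 382, 473 and 767 against 174, 172, 84.0 and 132, highest in hypoxic 22. Lag3 was at 159, 84.1, 300.0 and 109 against 51.7, 41.8, 17.7 and 61.6. Cd274, the gene of the ligand PD-L1, overlapped at 1948, 1392, 1179 and 880.0 against 1224, 887, 270.2 and 468, with hypoxic 55 above normoxic 65. Tigit was at 242, 132, 223 and 95.0 against 128, 119, 61.2 and 219, and its highest poor tumour was hypoxic 12, the lowest in Ptprc. Tnfrsf9 (-0.33), which encodes 4-1BB, and Cd276 (-0.35), which encodes B7-H3, had negative differences with overlapping groups.

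**Figure D2:**
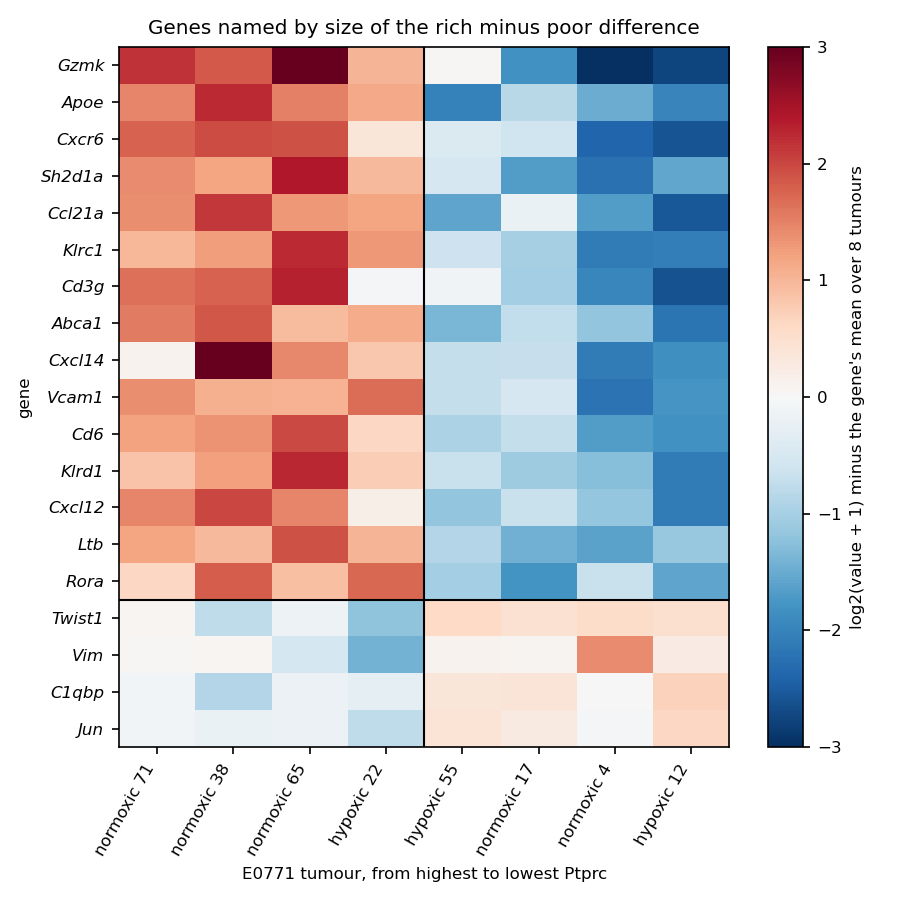
The 15 genes with the largest rich minus poor difference and the 4 most negative differences among the 6 genes that were lower in every rich tumour, as log2(value + 1) minus the gene's mean over the 8 E0771 tumours (columns from highest to lowest Ptprc; the black lines divide rich from poor tumours and higher from lower genes). Red cells fill the upper left and blue cells the upper right, with Cd3g near white in hypoxic 22 (246) and hypoxic 55 (236).

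Apoe, which encodes the lipid carrier apolipoprotein E, was at 21315, 36490.1, 22083 and 17076 in rich and 1922, 4385, 2763 and 1961 in poor tumours, log2 means of 14.51 ± 0.46 and 11.34 ± 0.56 (SD, n = 4 each). The lowest rich tumour was at about 4 times the highest poor tumour. Abca1, a pump that loads cholesterol onto lipoproteins, was at 1647, 2025, 1088 and 1211 against 217, 333, 247 and 121 (2.74). Rora, a nuclear receptor of lymphoid and myeloid cells, was at 151, 346, 183 and 324 against 47.8, 27.2, 61.2 and 31.9 (2.53). Lyz2, the lysozyme of macrophages and neutrophils, was at 28343, 41488, 57902 and 25696 against 7880.0, 8967, 8711 and 6306 (2.20). In all 4 genes the groups lay well apart.

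Of 28 macrophage and monocyte genes 11 separated the groups, and all 28 had positive differences (median 1.37). Over all 607 genes 33.8% were higher without overlap and 82.7% had positive differences. Csf1r, the receptor on which macrophages depend, was at 3207, 3622, 2697 and 1426 against 726, 733, 795 and 616, and the poor tumours lay within a narrow range. Cd68, a lysosomal protein of macrophages, was at 3649, 4017, 3088 and 1837 against 1815, 1656, 1273 and 1704, where hypoxic 22 and hypoxic 55 were nearly level; its difference of 0.92 was under the shift of the tumour medians. Mrc1, the mannose receptor, was at 1141, 2596, 2132 and 1809 against 769.6, 583, 2437 and 358, and normoxic 4 lay among the highest. Arg1, the arginase that depletes arginine, was at 2622, 4071, 1579.6 and 539 against 1241, 979.9, 211 and 303, with hypoxic 22 under 2 poor tumours. Nos2 (0.68), Chil3 (0.54) and Spp1 (0.26), which encodes osteopontin, had the smallest differences of the list.

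Neutrophil genes were led by S100a8, 1 subunit of the alarmin calprotectin, at 85.2, 417, 390.3 and 968 against 81.0, 66.3, 43.6 and 75.3. Normoxic 71, the tumour highest in Ptprc, was close to the poor tumours, and hypoxic 22 was the highest by far. Csf3r, the G-CSF receptor, was at 162, 189, 146 and 169 against 68.6, 53.6, 60.6 and 31.9, without such a spread. Cxcl2, a chemokine that draws neutrophils, was at 37.3, 19.2, 39.8 and 271 against 17.0, 9.08, 13.9 and 25.1. Its mean difference of 1.73 was 0.96 without hypoxic 22. Of 9 neutrophil genes that reached the level 3 separated the groups (median 1.44), where 33.8% of all 607 genes were higher without overlap. Of 17 measured, 8 did not reach the level, Cxcr2 among them. Among 4 mast cell and eosinophil genes Ccr3, the eotaxin receptor, (78.8, 139.9, 181 and 123 against 26.2, 26.3, 53.0 and 18.2) and Kit (35.1, 49.4, 37.2 and 70.4 against 16.2, 23.6, 30.9 and 18.2) separated the groups. Kit was under 31.0 in every poor tumour. Fcer1a and Il1rl1 overlapped through normoxic 4.

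Of 9 MHC class II genes 4 separated the groups and all had positive differences (median 1.44). H2-Aa and H2-Ab1, which lie next to each other on chromosome 17 and encode both chains of I-A, were at 33289, 30201, 34510.4 and 12102 against 8248, 8196, 6036 and 3932 and at 15694, 10538, 19593 and 7649 against 4464, 4029.6, 1958 and 3596. Cd74, the invariant chain, was at 35036, 24672, 33597 and 12003 against 8583, 8194, 5044 and 7058. Ciita, the switch of class II transcription, was at 91.6, 71.3, 101 and 77.4 against 27.0, 29.97, 31.6 and 34.2. For the structural genes hypoxic 22 lay well under the other rich tumours, whereas for Ciita the 4 were close together. The peptide loaders H2-DMa (1049.9, 858, 1112 and 246 against 382, 401, 345 and 392) and H2-DMb1 (645, 535, 449 and 148 against 264, 222, 215 and 209.8) overlapped, since hypoxic 22 had the lowest value of all 8. Of 13 dendritic cell genes 6 separated the groups (median 1.28), among them Clec4n (1.57), a lectin also called dectin-2. None of the 3 dendritic cell markers did so at the level. Itgax, which encodes CD11c, was at 214, 134, 162 and 52.8 against 84.0, 58.1, 32.8 and 75.3 and overlapped. Xcr1 was at 24.5, 46.6, 34.5 and 77.4 against 6.94, 12.7, 41.0 and 20.5 and overlapped through normoxic 4. Flt3 (0.52) did not reach the level. The sums of the 3 did not overlap (155 to 264 against 89.9 to 125).

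MHC class I and the interferon responses did not follow this pattern. Of 15 class I genes 3 separated the groups, with a median of 0.38, below that of all genes. H2-K1, a classical class I heavy chain, was at 11342, 11674, 12326 and 6875 against 6487, 5793, 3450.3 and 5124 (1.02), and H2-T23, the ligand of NKG2A, at 3608, 3791, 3072 and 1933 against 1709.6, 1194, 784 and 967 (1.43). The peptide transporter genes Tap1 (0.17) and Tap2 (-0.07) showed little difference, and for Tap1 hypoxic 12 was the highest of 8. Of 23 type I interferon response genes 1 separated the groups and the median was -0.07. That gene was Ifitm1 (369, 408, 576 and 289 against 133, 137, 158 and 79.8), an antiviral membrane protein. Ifi44 (918, 464, 536 and 440.0 against 1901, 1350.5, 446 and 509), Cmpk2 (-0.58) and Usp18 (-0.37) were lowest. For Ifi44 hypoxic 55 and normoxic 17 stood above every rich tumour.

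Of 19 interferon gamma response genes 1 separated the groups, Ciita, and the list median was 0.40. Cxcl9, a chemokine induced by interferon gamma that draws T cells through Cxcr3, was at 1973, 1932, 3082 and 1007 against 1198, 873, 125 and 442. Its difference of 1.92 was large, yet hypoxic 55 exceeded hypoxic 22. Cxcl10, a ligand of the same receptor, was at 832, 476, 759 and 749.8 against 975, 661, 234 and 705 (0.27), highest in a poor tumour. The receptor Cxcr3 itself was at 264, 262, 311 and 116 against 44.7, 34.5, 68.2 and 47.9 (2.21) and separated the groups. Receptor and ligands were therefore ordered differently across the tumours.

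Chemokines outside the interferon lists differed widely in size of difference. Ccl21a, which guides T cells and dendritic cells through Ccr7, was at 396, 655, 374 and 341 against 50.1, 132, 46.7 and 25.1 (2.99). The mouse genome holds near-identical Ccl21 copies, so this probe may count more than 1 gene. Ccl19, its neighbour on chromosome 4 and the other Ccr7 ligand, was at 72.4, 144, 133 and 59.8 against 17.0, 30.9, 71.3 and 11.4, and Ccr7 at 246, 248, 236 and 106 against 91.0, 89.9, 248 and 52.5. Both overlapped because normoxic 4 was high. Ltb, the lymphotoxin beta gene, was at 268, 229.6, 443 and 239 against 63.2, 42.7, 37.9 and 52.5 (2.54). Cxcl12, a chemokine of fibroblasts and endothelium, was at 1135, 1652, 1136 and 468 against 180.4, 261, 186 and 95.8 and its receptor Cxcr4 at 1223, 1284, 1163 and 542 against 356, 222, 168 and 244, both without overlap. Cxcl14, a chemokine of epithelium and fibroblasts, was at 125, 938, 316 and 204 against 70.2, 71.8, 26.5 and 31.9, where normoxic 38 stood far above the rest. In contrast, Ccl2, a monocyte chemokine, was at 4282, 2926, 7351 and 4333 against 5574, 4052, 3569.6 and 2946 (0.19). In all, 4 of 17 CC chemokines, 3 of 12 CXC chemokines and 6 of 12 chemokine receptors separated the groups. Their medians were 1.20, 0.98 and 1.31. The share over all 607 genes was 33.8%.

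Of 18 complement genes 5 were higher without overlap and 1 was lower (median 1.33). Serping1, the C1 inhibitor, was at 1652, 2923, 2058 and 1309 against 397, 399.6, 869 and 276. Of 30 Toll-like receptor and NF-kB genes 9 separated the groups (median 0.67), and these include the receptors Tlr8 (1.96), Tlr7 (1.89) and Tlr1 (1.85). The signalling members Irak1 (-0.25), Relb (-0.16) and Rela (-0.16) were at the other end. Of 13 inflammatory cytokine genes 4 separated the groups (median 1.15), among them Il1a at 29.8, 43.9, 50.4 and 88.0 against 13.1, 11.8, 11.4 and 11.4, while Csf1, the macrophage growth factor, had the lowest difference of the list at -0.70. The differences of Csf1 and its receptor Csf1r had opposite signs, with overlapping groups for Csf1. Of 6 Fc receptor genes 3 separated the groups (median 1.38), Fcgr2b among them (1.49), an inhibitory receptor of IgG. For these lists too the share over all 607 genes was 33.8% higher without overlap.

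Stromal genes were among the large differences too. Vcam1, an adhesion molecule by which leukocytes leave vessels, was at 910.4, 723, 714 and 1112 against 211, 242, 73.2 and 100.3 (2.60), highest in hypoxic 22. Of 17 endothelial genes 10 separated the groups (median 1.22), with Pecam1 at 481, 477, 268 and 246 against 199, 167, 118 and 43.3 and the angiopoietin receptor Tek at 83.1, 147, 125 and 56.3 against 11.6, 28.1, 32.8 and 27.4. Eng, the co-receptor endoglin, was the exception at 0.06, with hypoxic 22 and hypoxic 12 highest. Of 19 fibroblast and matrix genes 8 were higher and 2 lower without overlap (median 0.41). Col1a1, the main chain of type I collagen, was at 4516, 4982, 7893 and 17787 against 1065, 1381, 2057 and 1140.3, and among the rich tumours it ran in the order opposite to Ptprc. Fap, a protease of activated fibroblasts, was at 98.0, 244, 191 and 98.6 against 20.1, 28.1, 86.5 and 25.1.

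On the deposited scale 6 genes were lower in every rich tumour, with differences from -1.04 to -0.26. Both the number and the size depend on the scale. Relative to the median gene 103 of the 769 genes were lower and 50 higher without overlap. The same 6 then ran from -2.09 (Twist1) to -1.32 (Hdac3). Twist1, a transcription factor of mesenchymal cells, was at 274, 155, 236 and 113 in rich and 396, 363, 386 and 365 in poor tumours, log2 means of 7.53 ± 0.58 and 8.56 ± 0.06 (SD, n = 4 each). The poor tumours were nearly alike and the rich ones varied. Vim, the intermediate filament vimentin, was at 17426, 17913, 11790.2 and 6371 against 18361, 18098, 45646 and 20317 (-0.93), with normoxic 4 far above the others and hypoxic 22 far below. For Vim the gap between the groups was narrow. C1qbp, a mainly mitochondrial protein that binds C1q, was at 1771, 1028, 1654 and 1556 against 2437, 2468, 1858 and 3024 (-0.71). Jun (448, 412, 419 and 278 against 627, 572, 451 and 725), a subunit of AP-1, was lower by a similar amount, though normoxic 71 and normoxic 4 were nearly level. Hdac3 (-0.26), a histone deacetylase that is 1 of the 20 housekeeping genes used for the scaling, had the smallest difference of the 6. Of the other housekeeping genes Edc3 (0.85) and Gusb (0.59) were higher in every rich tumour, and the 20 had a median of 0.07.

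Lists of tumour cells, division and hypoxia had medians near or below 0 on the deposited scale. Of 20 epithelial and tumour genes 1 separated the groups, the tetraspanin Cd81 (1.70), and the median was 0.02. Myc was at 2846, 818, 2347 and 3897 against 4117, 5024, 1801 and 6463 (-0.87), highest in hypoxic 12. Of 15 listed proliferation genes 6 were measured, and 5 reached the level: Birc5, Ccnd3, Cdkn1a, Tfrc and Myc. None separated the groups one by one (median -0.27). Their mean log2 level was lower in every rich tumour (9.35 to 9.72) than in any poor tumour (9.76 to 10.0). The gap was narrow, with hypoxic 22 at 9.72 and normoxic 4 at 9.76. Whether these 5 genes measure division here was not tested. Of 6 hypoxia genes the chemokine receptor Cxcr4 alone separated the groups. Hif1a was at 4928, 2999.7, 2801 and 4354 against 4549, 4078, 2925 and 1729, and its target Vegfa at 498, 324, 220.3 and 341 against 390.2, 501, 309 and 292, with differences of 0.24 and -0.13.

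**Figure D3:**
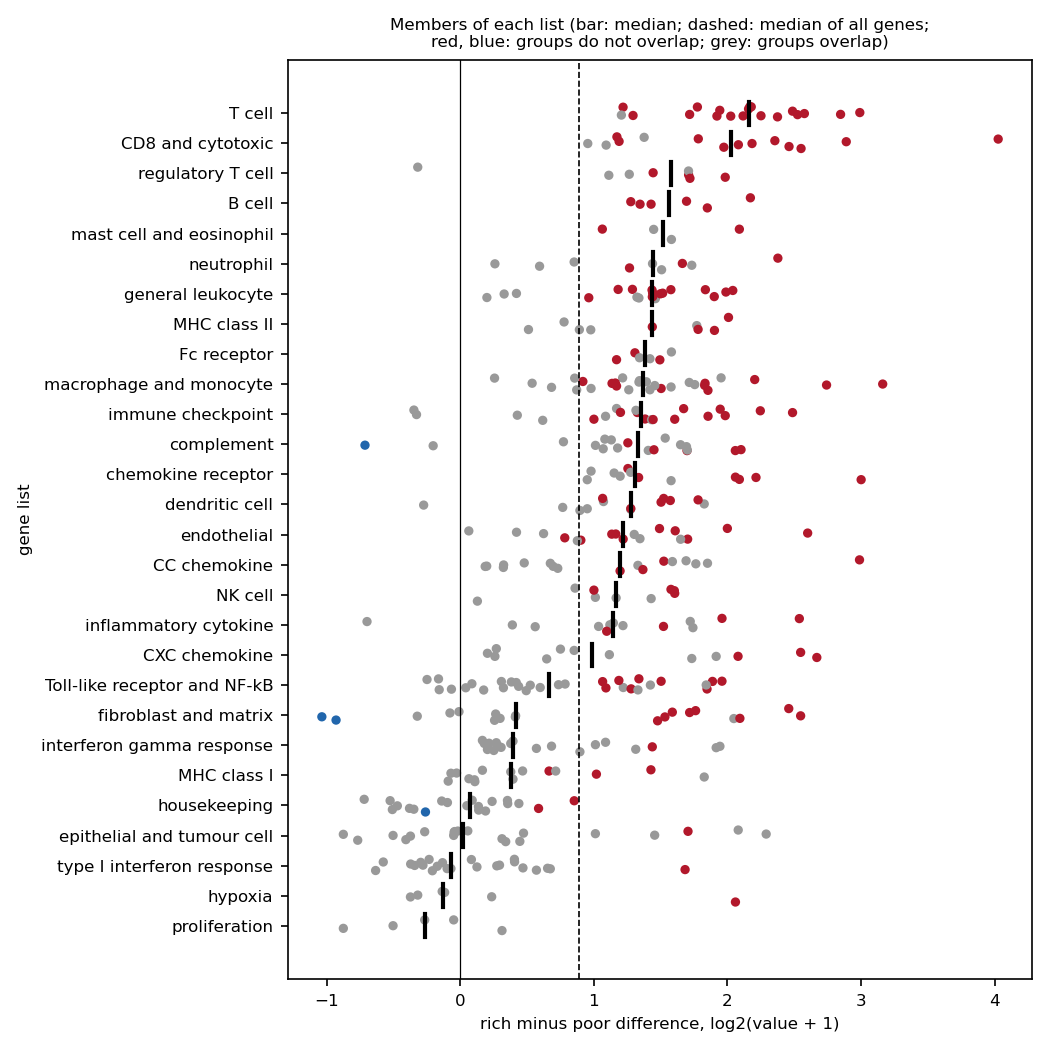
Rich minus poor difference, on the log2(value + 1) scale, of every gene that reached the level in 28 lists, with a bar at each list's median and a dashed line at the median of all 607 genes (0.89). Red and blue points are genes whose groups did not overlap; T cell genes centre on 2.16, and type I interferon genes on -0.07.

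Taking the mean level of each list by tumour, 20 of the 27 lists were higher in every rich than in any poor tumour and 6 overlapped. The remaining 1, proliferation, was lower by a narrow gap. For T cell genes the mean log2 level was 7.48, 7.73, 7.75 and 7.10 in rich and 5.63, 5.45, 5.46 and 5.15 in poor tumours, a gap of more than 1 unit between hypoxic 22 and hypoxic 55. For MHC class II it was 10.45, 10.55, 10.60 and 9.42 against 8.98, 8.96, 9.01 and 8.71, and hypoxic 22 lay nearer to the poor tumours than to the other rich ones. For neutrophil genes it was 6.48, 7.01, 7.08 and 7.50 against 5.89, 5.63, 5.87 and 5.49, highest in hypoxic 22. The type I interferon list ran from 9.07 to 9.33 in rich and from 8.65 to 9.56 in poor tumours, with both the highest and the lowest tumour in the poor group.

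**Figure D4:**
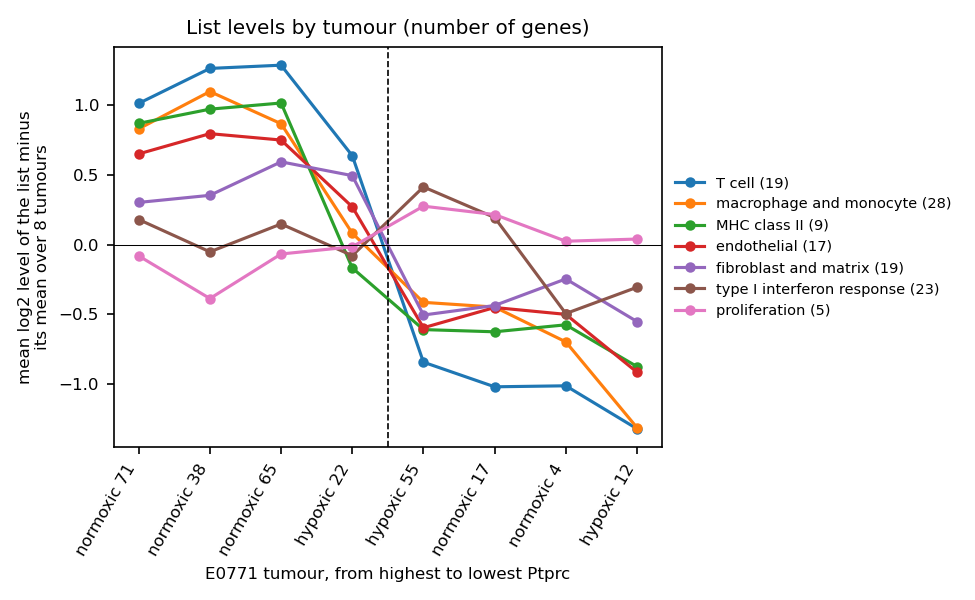
Mean log2 level of 7 gene lists in each E0771 tumour, minus the list's mean over the 8 tumours, from highest to lowest Ptprc; the number of genes is in brackets and the dashed line divides rich from poor. T cell and endothelial lists step down mainly at the line, macrophage and class II lists more between normoxic 65 and hypoxic 22, while type I interferon is highest in hypoxic 55 (9.56).

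Scaling changed how far the lists stood from 0. Centring each tumour subtracts the same amount from every gene and so kept the order of the lists, which positive-probe scaling need not do. Relative to the median gene, 18 of 27 list medians were above 0, with 1.10 for T cell, 0.97 for CD8 and cytotoxic, 0.31 for macrophage, -0.64 for fibroblast and matrix, -0.68 for MHC class I and -1.12 for type I interferon genes. The 15 genes with the largest differences stayed above 0 on that scale (1.48 to 2.97) and also with the positive-control scaling (1.92 to 3.40), where their groups overlapped. With centring this was fixed in advance, since the amount subtracted was less than each of the 15 differences. Ranked on median-centred Ptprc instead, hypoxic 55 took the place of hypoxic 22 among the rich tumours, and the 15 differences were still above 0. None of the 15 genes could separate those groups, since each had been chosen with hypoxic 22 above hypoxic 55. Over all 769 genes 39 were then higher and 3 lower without overlap. The 3 were Mif, a cytokine made by most cells, Sigirr, an inhibitor of interleukin-1 receptor signalling, and the kinase gene Mapk11. Centred, 12 of the 15 genes and all 6 lower genes remained without overlap. With the negative probes subtracted it was 14 of the 15 and 5 of the 6, and 188 genes were higher and 7 lower over all 769.

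The labelled hypoxia contrast gave no call for these genes. Of 712 genes tested over all 16 tumours, 0 (0%) passed at an adjusted p under 0.05 for E0771 hypoxic minus normoxic (limma with Benjamini-Hochberg adjustment; 45 genes at an unadjusted p under 0.05, and 0.620 as the lowest adjusted p). Without normoxic 17 a single gene passed, named after its value was seen: Cd34, a sialomucin of endothelium and progenitor cells, was lower in the hypoxic tumours by a log2 difference of -2.25 ± 0.37 (SE, adjusted p = 0.00950, limma). For the 15 genes the estimates ran from -1.66 (Cxcl12, ± 0.75, SE) to -0.42 (Vcam1, ± 0.76, SE), all negative. For the 6 lower genes they ran from -0.57 (Vim) to 0.42 (C1qbp). These values come from the same 8 tumours and the same scaling as the split.

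The MC38 tumours had no part in choosing the 15 genes of largest difference or the 6 lower genes. They show how these genes vary with Ptprc elsewhere. Some genes named below were chosen on their MC38 values, and the gene lists were made with earlier results of these data known. Ptprc in the MC38 tumours ran from 64.6 in hypoxic 25 to 1702 in normoxic 4. Without forming groups, the slope of each gene on log2 Ptprc was fitted over the 8 tumours, as a log2 change per unit of log2(Ptprc + 1). Of 711 genes tested, 459 (64.6%) rose with Ptprc and 25 (3.52%) fell at an adjusted p under 0.05 (limma, Benjamini-Hochberg). The high share is the background for what follows. Both axes carry the same scaling, and when each tumour was centred on its median gene no slope passed (0.0692 was the lowest adjusted p, and 106 genes had an unadjusted p under 0.05). With hypoxia status as a further term 103 rose and 0 fell. Without the 2 tumours farthest from the median Ptprc, normoxic 4 and hypoxic 25, 4 rose and 0 fell (167 at an unadjusted p under 0.05). The median slope was 0.61 there against 0.56 over all 8 tumours, with 86.8% against 87.1% of slopes above 0, while the median SE was 0.35 against 0.15. The 4, named after their values were seen, were Arg1, the phagocytic receptor Msr1, cathepsin S gene Ctss and the interleukin-7 receptor Il7r, each at an adjusted p of 0.0494 (limma). Leaving out normoxic 4 alone gave 220 rising and 1 falling (Myc), and leaving out hypoxic 25 alone gave 241 and 13.

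Of the 15 genes with the largest E0771 differences, 12 rose with Ptprc in MC38 and none fell (64.6% of all genes rose). Abca1 had a slope of 0.99 ± 0.10 (SE, adjusted p = 4.66e-05), Rora 0.98 ± 0.18 (adjusted p = 0.00150), Cxcr6 0.92 ± 0.15 (adjusted p = 8.29e-04) and Apoe 0.84 ± 0.16 (adjusted p = 0.00163), all from limma. Vcam1 did not pass in MC38 (-0.01 ± 0.11, adjusted p = 0.919, limma). Its Pearson's r with log2 Ptprc was -0.05 (exact permutation p = 0.916) and its rho 0.26 (exact permutation p = 0.536), but r was 0.83 without the 2 farthest tumours. Gzmk (0.44 ± 0.23, adjusted p = 0.106) and Sh2d1a (0.43 ± 0.22, adjusted p = 0.10004) did not pass in limma either. By correlation with log2 Ptprc, adjusted over all 711 genes, both did. So did genes of other kinds, such as the housekeeping gene Sdha (Pearson's r = 0.86, exact permutation p = 0.00260, adjusted 0.0161). Other housekeeping genes did not. The share of the 711 genes that passed by correlation is not given here, so nothing particular to Gzmk and Sh2d1a is read from it. For Gzmk Pearson's r was 0.90 (exact permutation p = 7.44e-04, adjusted 0.0147) and Spearman's rho 0.83 (exact permutation p = 0.0154, adjusted 0.0413), with r = 0.90 without the 2 farthest tumours. For Sh2d1a r was 0.77 (exact permutation p = 0.0215, adjusted 0.0402) and rho 0.81 (exact permutation p = 0.0218, adjusted 0.0464), with r = 0.71 without them. For these 2 genes the call depends on the test.

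Of the 205 genes that separated the E0771 groups, 170 (82.9%) rose with Ptprc in MC38. Of the 395 tested genes whose E0771 groups overlapped, 207 (52.4%) rose and 23 fell. Across 606 genes the E0771 difference and the MC38 slope had a Pearson correlation of 0.58 and a Spearman correlation of 0.63, given as a description over genes, which are not independent and share scaling in each tumour. Among the 6 lower genes C1qbp fell with Ptprc in MC38 (-0.47 ± 0.11, adjusted p = 0.00419, limma), and the other 5 did not pass. Slopes of Twist1 (-0.13) and Vim (0.21) had opposite signs.

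By list, 18 of 22 T cell genes rose in MC38 (median slope 0.76), 12 of 16 CD8 and cytotoxic genes (0.54), 26 of 29 macrophage genes (0.84), 9 of 9 MHC class II genes (0.91) and 12 of 12 B cell genes (0.86), against a median of 0.56 over all genes. Over all 711 genes 64.6% rose and 3.52% fell, and the CD8 and cytotoxic median lay just under that of all genes. Of 24 type I interferon genes 2 rose and 9 fell (median -0.14), and of 17 class I genes 7 rose and 2 fell (0.10). The 6 smallest p-values among rising genes belonged to Ctss, Cd36, Ccr1, Arg1, Lcp1 and Cybb, genes that macrophages express. Ctss, the lysosomal protease cathepsin S, had a slope of 1.06 ± 0.08 (adjusted p = 1.46e-05, limma), and in E0771 it was at 19355, 21708, 15053 and 4738 against 7115, 5684, 1939 and 1701, where hypoxic 55 and normoxic 17 exceeded hypoxic 22. The 6 smallest among falling genes belonged to C1qbp, Myc, Oas3, Smn1, Ifi35 and Psmb10, and of these 5 had negative E0771 differences (0.47 for Psmb10, an immunoproteasome subunit).

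**Figure D5:**
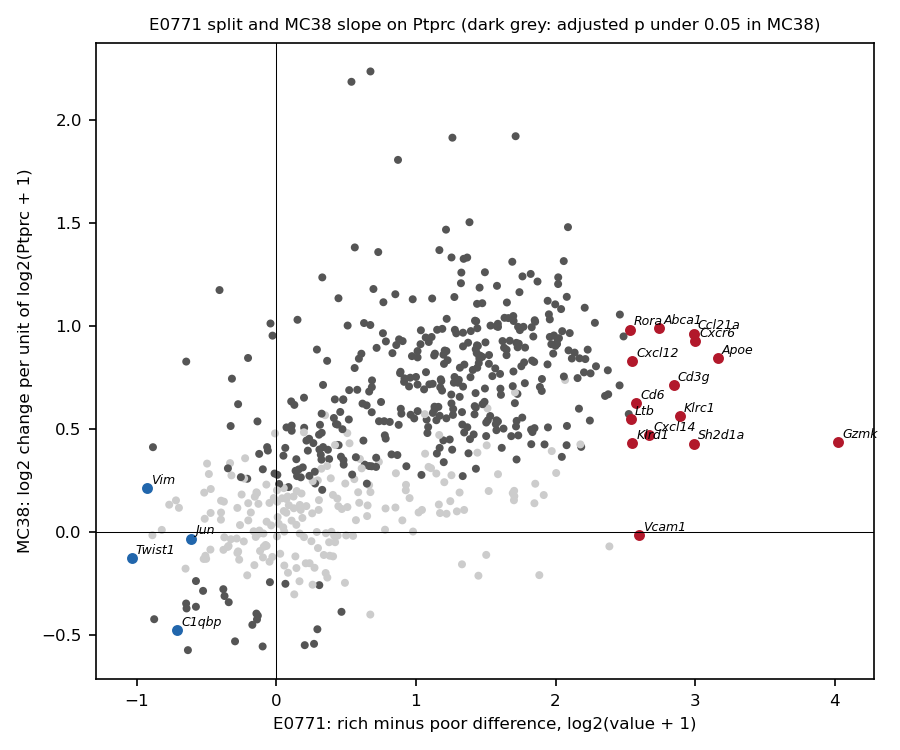
Each point is 1 of 606 genes: the E0771 rich minus poor difference on the x axis and the MC38 slope on log2(Ptprc + 1) on the y axis, dark grey where the slope passed at an adjusted p under 0.05. The 15 largest differences are red and lie above 0 apart from Vcam1 (-0.01), and the 4 lower genes with the most negative differences are blue, with C1qbp lowest (-0.47).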

How the data were processed

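RNA of 16 mouse tumours was measured on the NanoString mouse PanCancer Immune panel with 784 probes (770 genes, 8 negative and 6 positive controls), 1 lane per tumour. The deposited values are normalized signal, scaled by the authors so that 20 housekeeping genes have the same geometric mean of 780 in each tumour. The scaling was found from the values, and the sources used here do not give software or background steps. In each tumour all values were whole multiples of 1 step within 0.1 step, and dividing by it gave estimated counts, used only for depth and for alternatives.

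Values were taken as log2(value + 1). The 8 E0771 tumours were ranked by Ptprc, and 769 genes were described as rich minus poor means. Genes at or above the level of 31.0 (mean plus 2 SD of the negative probes over the E0771 tumours) enter list counts, and genes at or above 24.0 over 16 tumours enter the fits. Limma 3.58.1 in R 4.3.3 fitted the 4 labelled group means over 16 tumours, and the slope on log2(Ptprc + 1) over the 8 MC38 tumours, with trended eBayes and Benjamini-Hochberg adjustment. Fits were tested on simulated data with known changes. The simulated noise was independent between genes, with no scaling shared within a tumour, so the effect of shared scaling was not tested. Mouse numbers are separate within a line (both lines use 4, 12 and 17), and p-values measure the spread between these tumours. Python 3.11.15, pandas 2.3.3, numpy 2.4.6, scipy 1.17.1 and matplotlib 3.10.9 were used for the rest. Of 770 gene symbols, 756 matched a GRCm38.p6 gene table by symbol and 8 by synonym, and 6 were kept as on the panel.

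The members and the 29 gene lists, 1 of them of genes of general interest, were chosen with earlier results of these data known. Named genes were the 15 largest differences in each direction among those without overlap (6 downward), a list of general interest, up to 3 members at each end of every list, members of lists of 12 or fewer, and the 6 smallest slope p-values in each direction. Further genes were named after their values were seen. Positive-probe scaling and the fit without the 2 farthest tumours were chosen after seeing the data. Some named genes are not reported here.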

Additional observations from a re-analysis of the deposited data

Results flagged for a closer look

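Of 110 sets of 4 tumours examined with Dixon's test (the rich and the poor group for each gene of interest), 6 held a tumour far from the other 3. Chance gives about 1 in 20, so about this many were to be had by chance. In 5 of the 6 the tumour was hypoxic 22, the rich tumour lowest in Ptprc and 1 of the 3 with the fewest counts.

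The signal of Cxcr6, a chemokine receptor of tissue-resident T cells, was 345 in hypoxic 22 against 902 to 1040 in the other rich tumours. Cd8a, the CD8 alpha chain, was at 158 against 288 to 324. Gzmb, which encodes granzyme B, was at 70.4 against 418 to 470, the widest of these gaps in proportion. H2-Aa, a class II chain, was at 12102 against 30201 to 34510, and H2-K1, a class I chain, at 6875 against 11342 to 12326. Among the poor tumours Vim, which encodes vimentin, was at 45646 in normoxic 4 against 18098 to 20317 in the other 3.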

How the results depend on the processing

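No paired analysis was possible because the groups compared share fewer than 2 mouse numbers. The median E0771 difference over all 769 genes (0.78) became -0.27 with each tumour centred on its median gene, 0.33 with tumours ranked again on centred Ptprc, 0.59 with a pseudocount of 10 and 0.20 with positive-probe scaling. The genes without overlap, 219 higher and 6 lower, became 50 and 103 centred, 39 and 3 ranked again, 335 and 32 in normoxic tumours only, 344 and 44 without the 3 tumours of fewest counts, and 1 and 0 with positive-probe scaling. With 3 against 3 tumours they were 293 and 15, and without each tumour in turn 224 to 316 and 6 to 17 (lower 17 without normoxic 4, 15 without hypoxic 12, 13 without hypoxic 22, 11 without normoxic 71). Fewer tumours separate more genes by construction. MC38 slopes (459 rising, 25 falling) became 0 and 0 centred, 103 and 0 with hypoxia status as a term, 45 and 0 as counts scaled on their gene total, and 4 and 0 without the 2 farthest tumours. Leaving out 1 MC38 tumour gave 220 to 483 rising and 1 to 27 falling (220 and 1 without normoxic 4, 241 and 13 without hypoxic 25), and leaving out 1 E0771 tumour gave 0 to 1 gene lower in hypoxic tumours. Centring turned the difference of Cd68 to -0.14, H2-K1 to -0.0360, Cd244 to -0.0545, Edc3 to -0.20 and Gusb to -0.47, and positive-probe scaling turned Gusb to -0.00460. Differences of further named genes became negative with centring too, among them Tigit (-0.63), Cxcl10 (-0.78) and Ccr7 (-0.10). Centring turned the slopes of Ltb to -0.0334, Pdcd1 to -0.0305, Tigit to -0.14, Ncr1 to -0.00777, Cd47 to -0.25, Cd276 to -0.30, Cxcl2 to -0.0362, Cd1d1 to -0.12 and Eng to -0.17. Counts scaled on their gene total turned those of Cd47 to -0.19 and Cd276 to -0.0409. Without the 2 farthest tumours those of Ccl21a, Cxcl10 and Cmpk2 were -0.20, 0.0951 and 0.0896. The cause was not tested. Of the other values for named genes and lists, 8483 were classed as unchanged. For the fits that class includes sign changes where neither setting gave a call. A further 628 lost a call, 12 gained 1 and 470 moved beyond the SD. Ptprc in hypoxic minus normoxic tumours ran from -1.76 to -0.32 (exact permutation p 0.229 to 0.762). Genes near the negative probes, B and NK cell receptors above all, are limited by depth in hypoxic 22, normoxic 65 and hypoxic 12.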

Other observations

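Of the 607 genes that reached the level, 39 had a larger E0771 difference than the 2.10 of Ptprc itself, and some of them were not named above. The genes given here were chosen after their values were seen and are descriptions. Klrc2, which encodes the activating receptor NKG2C, was at 131, 151, 263 and 176 in the rich and 24.7, 34.5, 75.1 and 13.7 in the poor tumours. Slamf6, a SLAM receptor of T cells, was at 78.8, 82.3, 87.6 and 45.8 against 28.5, 18.2, 10.1 and 6.84, under 31.0 in every poor tumour. Il18r1, a chain of the interleukin-18 receptor, was at 227, 354, 300.0 and 190.1 against 87.9, 45.4, 57.5 and 38.8. Itga4, the integrin chain that binds Vcam1, was at 247, 243, 186 and 271 against 70.2, 54.5, 78.3 and 20.5. In all 4 genes the groups lay apart, and hypoxic 22 was the lowest rich tumour for Slamf6 and Il18r1 but the highest for Itga4.

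2 further genes of other functions separated the groups. Ncam1, a neural adhesion molecule, was at 107.5, 119, 85.0 and 127 against 25.4, 33.6, 30.3 and 18.2. App, the amyloid precursor protein gene, was at 1890.0, 2311, 1784 and 1471 against 632, 646, 502 and 472. For both genes each of the 4 rich tumours was more than 2 times the level of any poor tumour.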
